A study of Mus musculus with 5 samples.

Results

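The 9 genes described here encode the machinery that loads and displays peptides on MHC class II: the H2-O pair H2-Oa and H2-Ob, the classical chains H2-Aa, H2-Ab1 and H2-Eb1, the peptide exchanger genes H2-DMa and H2-DMb1, the invariant chain gene Cd74, and the transactivator gene Ciita. They were selected by symbol from a table of 25655 gene symbols, after earlier results of the same table were known. The values that singled them out were the differences between Sorbinil and DMSO retinas, in which H2-Oa and H2-Ob were lower, so those differences are given below as a description with no test.

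Whole injured retinas of wildtype C57BL/6 mice, 8 to 10 weeks old, were collected 7 days after optic nerve crush, in which the nerve of the left eye was pinched behind the globe. All mice had the crush, and uninjured retinas were not analysed here. The DMSO group received the vehicle by intraperitoneal injection (3 retinas, numbered 1, 2 and 3), and the Sorbinil group received 10 mg/kg of Sorbinil, an inhibitor of aldose reductase, the enzyme that reduces glucose to sorbitol (2 retinas, numbered 1 and 3). The study left out 1 further Sorbinil replicate after looking at a principal component analysis of the mapped reads, and it is not analysed here. The Sorbinil spread and every standard error below are therefore those of replicates kept after their expression had been seen. The measurement was total RNA sequencing, given as reads per gene, with 56096541 to 90288552 counts per retina.

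MHC class II molecules are paired alpha and beta chains on antigen-presenting cells that show peptides from endocytosed proteins to CD4+ T cells. The invariant chain fills the groove of a new molecule, cathepsins trim it to a short peptide, and H2-DM exchanges that peptide for others, while H2-O binds H2-DM and inhibits it. H2-O is best known from B cells and some dendritic cells, whereas microglia, the resident macrophages of the retina, carry little class II at rest and more when activated. Ciita does not bind DNA itself and acts through factors sitting on the X and Y boxes of class II promoters.

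The stretch holding both boxes is shown for the H2-O pair and for H2-Aa and H2-Eb1, which are among the 5 members where both were found. The sequences are from a RefSeq promoter table of GRCm38.p6 and were each matched to a single place on chromosome 17 of GRCm39, whose coordinates are given. They are written 5′ to 3′ on the strand of the gene. Capitals mark the letters searched for: GNAAC for the core of the X box, TGATG or TGACG just after it for the neighbouring X2 element, and ATTGG for the Y box, an inverted CCAAT.
H2-Oa, chr17:34311257-34311314, plus strand: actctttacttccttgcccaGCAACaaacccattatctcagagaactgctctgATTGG
H2-Ob, chr17:34457772-34457826, plus strand: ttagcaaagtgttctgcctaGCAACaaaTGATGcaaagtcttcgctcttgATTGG
H2-Aa, chr17:34506841-34506898, minus strand: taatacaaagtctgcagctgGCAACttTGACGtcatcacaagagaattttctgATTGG
H2-Eb1, chr17:34524730-34524786, plus strand: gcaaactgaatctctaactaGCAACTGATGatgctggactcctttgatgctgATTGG

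In these 4 stretches GNAAC began 76 to 91 bases before the start in the RefSeq table, which differs from the GENCODE gene starts given below, and was followed by ATTGG after 25 to 28 bases. Both H2-O genes therefore carried the pair of boxes, but H2-Oa had no TGATG or TGACG within 4 bases after its GNAAC, whereas H2-Ob, H2-Aa and H2-Eb1 did. H2-DMb1 also had the full order, and neither of the 2 entries for H2-DMa had GNAAC followed by ATTGG at the spacing searched. The table held an entry for 6 of the 9 members, and H2-Ab1, Cd74 and Ciita were not among them. Single boxes are common. Over all 32851 promoters, read on both strands in the 250 bases before the start, GNAAC was found in 79.6% and ATTGG in 33.8%. GNAAC followed by ATTGG with 10 to 40 bases between was found in 4.15%, and the order with TGATG or TGACG as well in 0.07%, or 23 entries of 22 genes, of which 4 were members. The search letters were chosen with these sequences in view, a match is a description of letters and not a binding site, and the searched letters do not overlap each other in the printed stretches.

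**Figure D1:**
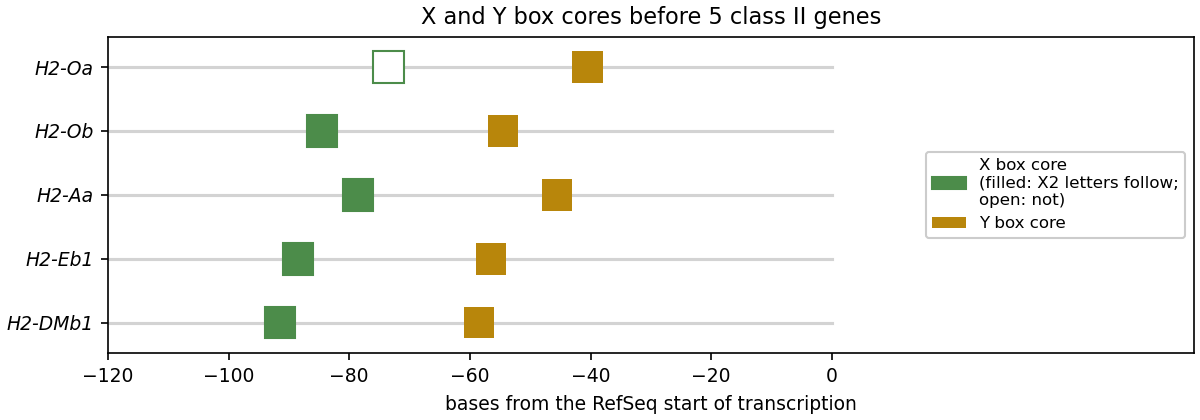
Position of the promoter letters in the members with a RefSeq entry, in bases from the RefSeq start (horizontal axis), for the 5 members with both boxes and with a filled X box where X2 letters follow. H2-Oa alone has an open X box.

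Whole retinas hold several cell types, and markers of these types differed between the 5 retinas. Rod genes were by far the most abundant, as the retina label calls for. The Sorbinil retina numbered 1 stood apart: relative to the DMSO mean, its mean log2 difference was 0.48 over rod markers, -1.41 over Müller glia markers, -1.97 over endothelial markers and -0.84 over 15 microglial markers. The Sorbinil retina numbered 3 had values of -0.37, 0.01, -0.68 and -0.10 for the same lists. Over retinal ganglion cell markers the Sorbinil retinas 1 and 3 were at -1.48 and -0.22. The DMSO retina numbered 2 was highest for the monocyte and neutrophil genes S100a9, with 68 counts against 11 and 1 in the other DMSO retinas, and Plac8, with 29 counts against 2 and 5. Y-linked genes summed to 16268 to 17064 counts in the retinas numbered 1 and 2, and to 2 and 4 counts in both retinas numbered 3. In whole tissue, fewer cells of a type and less RNA per cell cannot be told apart.

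All 9 members were rare transcripts. Their summed counts were 626, 705 and 297 for DMSO retinas 1 to 3, against 215 and 418 for Sorbinil retinas 1 and 3. One count was worth 0.0103 to 0.019 CPM, which here means counts scaled to library sizes adjusted by the trimmed mean of M values. Members with few counts therefore have wide counting intervals.

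Levels between genes were compared as CPM per kilobase of the canonical transcript (GENCODE vM39 on GRCm39). H2-DMa was the highest in the DMSO retinas, at 2.3 ± 0.057 CPM per kb (SD, n = 3). H2-Ab1 followed at 0.925 ± 0.238, Cd74 at 0.821 ± 0.535, H2-DMb1 at 0.479 ± 0.156, H2-Aa at 0.375 ± 0.372 and H2-Eb1 at 0.194 ± 0.173 CPM per kb. From H2-Ab1 down to H2-Oa, at 0.158 ± 0.0279 CPM per kb, neighbours in this order overlapped in range, whereas H2-DMa lay above H2-Ab1 in every DMSO retina, and H2-Ob at 0.0974 ± 0.00205 was below H2-Oa in all 3 retinas. Ciita was the lowest at 0.00713 ± 0.00295 CPM per kb.

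H2-Oa encodes the alpha chain of H2-O and lies on the plus strand at chr17:34311314-34314328, in 5 exons of its canonical transcript. Of its exonic bases 396 are shared with BC051537, a long non-coding RNA gene on the other strand that was not analysed here. It drew 22, 13 and 10 counts in the DMSO retinas 1, 2 and 3, which are 0.228, 0.163 and 0.18 CPM. The Sorbinil retinas 1 and 3 drew 3 and 5 counts, which are 0.0571 and 0.0737 CPM. Both Sorbinil values lay below all 3 DMSO values, and the DMSO retinas themselves spanned 1.40-fold. The fitted difference was -1.51 on the log2 scale (SE 0.48), or 2.85-fold lower with Sorbinil, and -1.35 without the Sorbinil retina 1. The 95% Poisson interval of the Sorbinil retina 1 ran from 0.0118 to 0.167 CPM and that of retina 3 from 0.0239 to 0.172 CPM, and those of the DMSO retinas began at 0.143, 0.0866 and 0.0863 CPM, so the intervals of the groups overlapped. These intervals cover counting error only.

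H2-Ob encodes the beta chain and lies on the plus strand at chr17:34457836-34473388. Its counts were 25, 21 and 15 in the DMSO retinas, or 0.259, 0.263 and 0.27 CPM. In the Sorbinil retinas they were 6 and 8, or 0.114 and 0.118 CPM. The 3 DMSO retinas were almost level, with a highest-to-lowest ratio of 1.04, and the 2 Sorbinil retinas sat together below them. The fitted difference was -1.17 on the log2 scale (SE 0.39), or 2.25-fold lower, and -1.14 without the Sorbinil retina 1. The 95% Poisson intervals of the Sorbinil retinas were 0.0419 to 0.248 and 0.0509 to 0.232 CPM. Those of the DMSO retinas began at 0.167, 0.163 and 0.151 CPM, so they overlapped both. The replicates of H2-Ob varied less than counting alone gives, with a chi-square per degree of freedom of 0.00874 in the DMSO group, so the small spread says little about the precision of a count near 20.

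The members that passed the study's threshold, an unadjusted p of at most 0.1 with at least a 2-fold change, were H2-Oa and H2-Ob, both lower, out of the 8 members tested. Across all 14992 genes tested 1.35% were called lower and 1.71% were called in either direction. The same 2 members were the ones with both Sorbinil retinas below every DMSO retina, against 10.5% of all genes tested. Because H2-Oa and H2-Ob were chosen for this difference, nothing is read from these counts. Among the 160 tested genes with a mean count at or below that of H2-Oa, 6.25% were called lower. H2-Oa and H2-Ob had under 10 counts in both Sorbinil retinas. They therefore passed the filter on low counts (minimum count 10) through the DMSO retinas alone. The 160 genes passed the same filter, and nothing is read from their share either. After Benjamini-Hochberg adjustment of edgeR's quasi-likelihood test over all 14992 genes, 0 genes had an adjusted p under 0.05, the smallest adjusted p was 0.758, and 751 genes had an unadjusted p under 0.05.

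H2-Aa encodes the I-A alpha chain (chr17:34493404-34506798, minus strand). It drew 30, 71 and 4 counts in the DMSO retinas, or 0.31, 0.888 and 0.072 CPM, and 7 and 21 counts in the Sorbinil retinas, or 0.133 and 0.309 CPM. The highest DMSO value was 12.3 times the lowest, and both Sorbinil values lay inside the DMSO range. The fitted difference was -0.93 (SE 1.00), smaller than its error. It was 0.16 without the DMSO retina 2 and -1.69 without the Sorbinil retina 3.

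H2-Ab1, for the I-A beta chain (chr17:34476663-34488393, plus strand), had the most counts of the classical genes. The DMSO retinas had 120, 106 and 44 counts, or 1.24, 1.33 and 0.792 CPM, and the Sorbinil retinas had 46 and 92, or 0.875 and 1.36 CPM. The group means were both 1.12 CPM, and the Sorbinil retina 3 was the highest of the 5. The fitted difference was -0.01 with an SE of 0.37, and it was 0.28 without the Sorbinil retina 1 and -0.36 without the Sorbinil retina 3.

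H2-Eb1 encodes the I-E beta chain (chr17:34504236-34535648, plus strand). C57BL/6 mice lack a functional promoter for H2-Ea, the alpha chain it would pair with, and H2-Ea drew 0 counts in every DMSO retina and 2 and 1 counts in the Sorbinil retinas. H2-Eb1 drew 21, 53 and 6 counts in the DMSO retinas, or 0.217, 0.663 and 0.108 CPM. The Sorbinil retinas held 16 and 18 counts, or 0.304 and 0.265 CPM, inside the 6.14-fold DMSO range. The fitted difference of -0.23 (SE 0.78) became 0.76 without the DMSO retina 2.

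**Figure D2:**
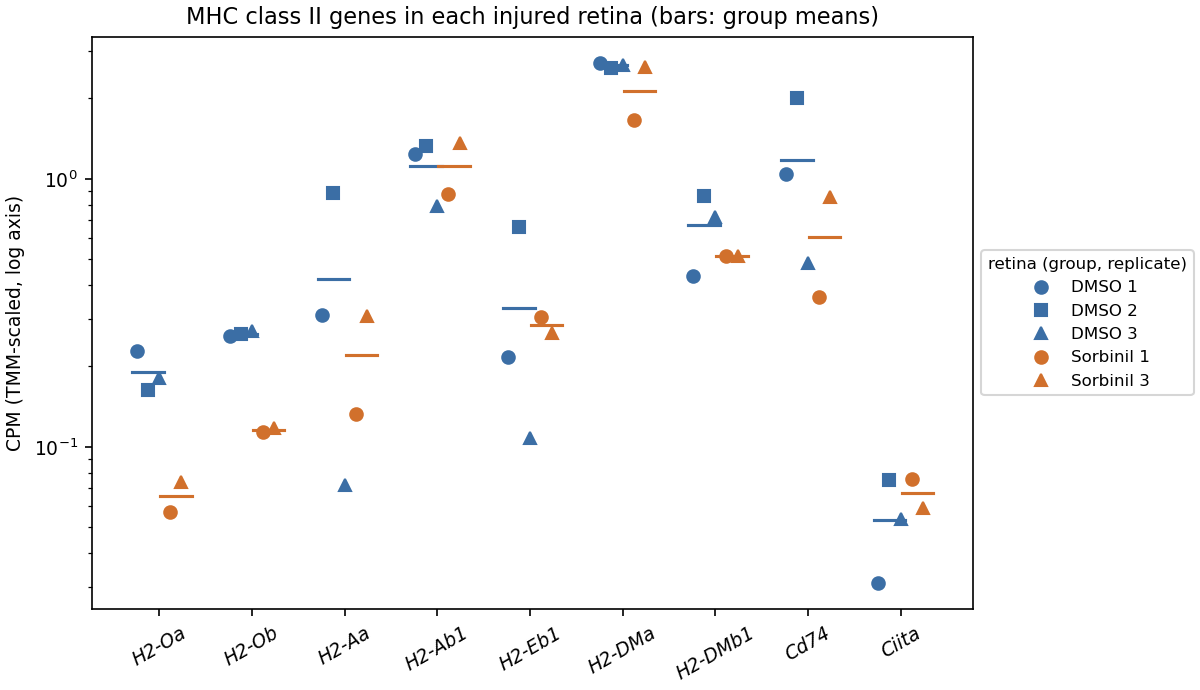
CPM of each member in each retina on a log axis, with 1 point per retina, colour for the group, symbol for the replicate number and a bar at each group mean. The Sorbinil points of H2-Oa and H2-Ob sit below all 3 DMSO points, and those of the other members fall within or across the DMSO range.

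Cd74, the invariant chain, is encoded on chromosome 18 and was counted at 101, 160 and 27 in the DMSO retinas, or 1.04, 2.00 and 0.486 CPM. The Sorbinil retinas had 19 and 58 counts, or 0.361 and 0.854 CPM. Retina 2 was the highest DMSO retina and retina 3 the lowest, the same order as for H2-Aa, and the Sorbinil retina 3 was above the lowest DMSO retina. The fitted difference was -0.95 (SE 0.70), between -1.71 without the Sorbinil retina 3 and -0.33 without the DMSO retina 2.

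H2-DMa, the alpha chain of the peptide exchanger (chr17:34338515-34358958, plus strand), had 262, 206 and 148 counts in the DMSO retinas, or 2.71, 2.58 and 2.66 CPM. The Sorbinil retina 1 had 87 counts, or 1.66 CPM, and the Sorbinil retina 3 had 177, or 2.61 CPM. H2-DMa was level in 4 of the 5 retinas and lower in the Sorbinil retina 1. The fitted difference was -0.31 (SE 0.28), and -0.01 without that retina. The gene span of H2-DMa partly overlaps Brd2, which is on the other strand and had a mean of 13396 counts against 176 for H2-DMa. The canonical transcript of H2-DMa (chr17:34354560-34358075) lies outside Brd2 and shares 0 exonic bases with it.

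H2-DMb1, the beta chain (chr17:34372046-34379204, plus strand), was counted at 42, 69 and 40 with DMSO and at 27 and 35 with Sorbinil. These are 0.434, 0.863 and 0.72 CPM against 0.514 and 0.516 CPM, all Sorbinil values inside the DMSO range, and the fitted difference was -0.38 (SE 0.41). It was -0.62 without the DMSO retina 1 and -0.15 without the DMSO retina 2. H2-DMb2 is a near-identical paralog with 2 to 4 counts in any retina, so reads that the counting could not place may have been split between them.

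Ciita (chr16:10297923-10347694, plus strand) was counted 3, 6 and 3 times with DMSO and 4 times in both Sorbinil retinas, which did not pass the filter on low counts. These are 0.031, 0.0751 and 0.054 CPM against 0.0761 and 0.0589 CPM, a range too coarse for a difference to be seen. Without the filter the fitted difference was 0.34 (SE 0.75). Ciita shares 412 exonic bases with Dexi on the other strand, which had a mean of 1275 counts against 4 for Ciita, and the sources used here do not say whether the counting used strand.

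The H2-O pair was set against the classical genes within each retina, as the mean log2 CPM of H2-Oa and H2-Ob minus that of H2-Aa, H2-Ab1 and H2-Eb1. This difference was -0.80, -2.01 and 0.16 in the DMSO retinas and -1.73 and -2.08 in the Sorbinil retinas. The Sorbinil retina 1 lay inside the DMSO range, so the groups overlapped. The means were -0.886 ± 1.09 (SD, n = 3) and -1.90 ± 0.25 (n = 2), which differ by -1.02, about the size of the DMSO spread. It was -0.50 without the DMSO retina 3 and -1.58 without the DMSO retina 2.

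The parts of that difference moved differently. The H2-O mean was -1.88, -2.09 and -2.0 log2 CPM in the DMSO retinas and -3.18 and -3.03 in the Sorbinil retinas, a difference of -1.12 with no overlap. The classical mean was -1.08, -0.07 and -2.16 against -1.46 and -0.96, a difference of -0.10 with overlap. The spread of the contrast came from the classical genes, whose DMSO retinas differed by more than the groups did. In counts, the H2-O pair had 27.5, 14.8 and 46.3 counts per 100 classical counts in the DMSO retinas and 13 and 9.92 in the Sorbinil retinas, which do not overlap but rest on 9 and 13 H2-O counts. Within the retinas that carried Y-linked counts the H2-O mean differed by -1.20 and the classical mean by -0.88, and within those that did not by -1.03 and 1.20, with a single Sorbinil retina in each set.

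**Figure D3:**
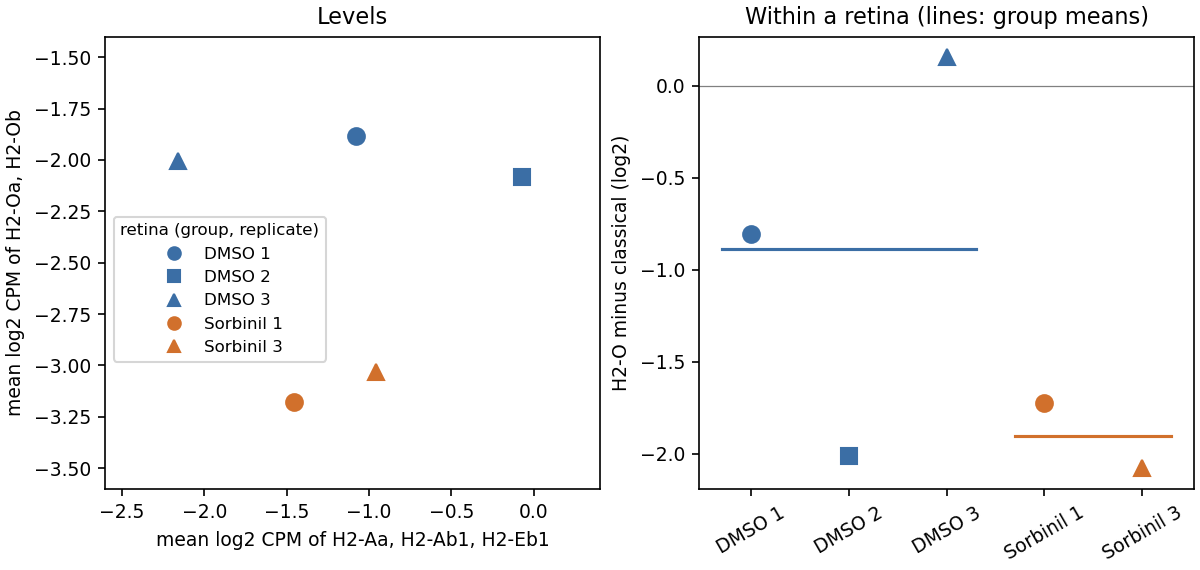
Left, mean log2 CPM of the H2-O pair (vertical) against that of the classical genes (horizontal), with 1 point per retina, and right, the first minus the second, with lines at the group means. The H2-O values of the Sorbinil retinas are below all DMSO values, while the classical values and the differences overlap.

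Microglial markers were at their lowest in the Sorbinil retina 1. Over 15 microglial markers the summed CPM was 220, 258 and 176 in the DMSO retinas and 119 and 195 in the Sorbinil retinas. Of the 15 fitted differences 14 were negative, with a median of -0.43. The markers called were 0 of 15, beside 1.71% of all genes tested, so nothing is read from that 0. Taken relative to the microglial mean, the H2-O pair was -4.89, -5.36 and -4.75 in the DMSO retinas and -5.34 and -5.94 in the Sorbinil retinas. On this scale the Sorbinil retina 1 lay inside the DMSO range, the groups overlapped, and their means differed by -0.64. The part of microglial content in the H2-O difference was not tested.

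Among markers of cell types known for H2-O, some were at or near 0 and others drew more counts than the H2-O genes. Over 11 B cell genes the counts summed to 52, 33 and 47 in the DMSO retinas and 14 and 55 in the Sorbinil retinas. Pax5 had 16, 10 and 18 counts in the DMSO retinas against 4 and 10, and Cr2 had 19, 12 and 8 against 4 and 28. Ighm, Igkc and Blk were at 0 in every retina. Of 487 symbols that begin like those of immunoglobulin and T cell receptor segments only 1 had a count, and it need not be a segment. The zeros of Ighm and Igkc therefore say little about B cells. Over 8 dendritic cell genes the summed CPM was 7.98, 7.83 and 6.50 in the DMSO retinas and 7.84 and 8.25 in the Sorbinil retinas, and Xcr1, Clec9a and Cd209a were at 0. Most of the dendritic cell sum was Zbtb46, which differed by 0.19, while Itgax differed by 0.04 and Flt3 by -0.55. As a mean log2 difference over the 3 dendritic cell genes tested, the DMSO retinas were at 0.23, 0.16 and -0.39, the Sorbinil retina 1 below them at -0.45 and the Sorbinil retina 3 among them at 0.19. Their part in the H2-O difference was not tested.

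Some monocyte and endothelial genes passed the study's threshold. Beside the 1.35% of all genes tested that were called lower, 2 of the 3 monocyte genes tested, of 7 listed, were called, Ly6c1, with 642, 624 and 236 counts in the DMSO retinas against 54 and 134, and S100a8, with 16, 56 and 1 counts against 0 and 1. The third, Plac8, differed by 0.18. Ly6c1 is also expressed by endothelium, and the monocyte genes Ly6c2, with 3, 4 and 0 counts against 0 and 0, and Chil3, with 5, 11 and 0 against 0 and 0, were near 0. Of 8 endothelial genes 4 were called lower, Cdh5, Cldn5, Tie1 and Emcn, and the median over the 8 was -1.31. For 9 border macrophage genes the summed CPM was 15.2, 12.5 and 15.0 against 3.82 and 11.8, most of it Lyve1, which is also a lymphatic endothelial gene. Of the 4 tested, Lyve1 and Stab1 differed by -0.98 and -0.61, and Mrc1 and Cbr2 by 0.55 and 0.14. Their mean log2 difference was -0.42, -0.06 and 0.48 in the DMSO retinas and -1.11 and 0.42 in the Sorbinil retinas, so the groups overlapped. The part of these cell types in the class II values was not tested.

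**Figure D4:**
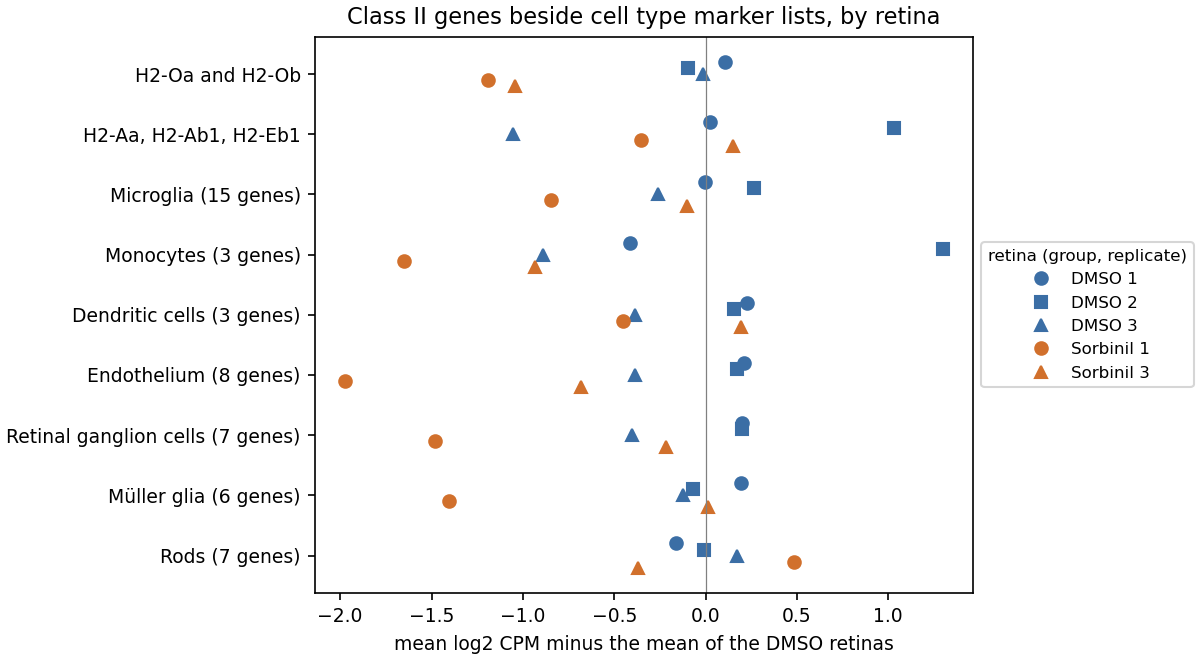
Mean log2 CPM minus the DMSO mean (horizontal axis) for the H2-O pair, the classical genes and each marker list, with 1 point per retina. The Sorbinil retina 1 is highest for the rod list and lowest for every other marker list shown.

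The 51 genes of the surrounding pathway, on 4 lists chosen with earlier results known, were described by their counts. Of these 42 were tested, and 0 were called in either direction by edgeR or by DESeq2. Over all 14992 genes tested by edgeR 1.71% were called, so 0 of 42 is near that share and nothing is read from it. The median difference was -0.04 against -0.01 over all genes tested. Of the 42, 3 had an unadjusted p under 0.05 by edgeR's quasi-likelihood test, 1 lower and 2 higher, with adjusted p of 0.758. Over all 14992 genes tested 751 had such a p.

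Of 21 regulators of class II transcription, 20 were tested and 8 of those differences were negative, with a median of 0.04. Crebbp, a histone acetyltransferase that Ciita recruits, was at 183 ± 9.5 CPM with DMSO and 232 ± 5.53 with Sorbinil. Its difference was 0.34 (SE 0.12, unadjusted p 0.0288, edgeR's quasi-likelihood test). Kat2b, another acetyltransferase, was at 144, 149 and 177 CPM in the DMSO retinas and 230 and 152 CPM in the Sorbinil retinas. The Kat2b group means of 156 and 191 CPM gave a difference of 0.29 (SE 0.21), and the Sorbinil retina 3 lay inside the DMSO range. Jak1, the interferon receptor kinase, was level at 155 CPM in both groups. The box-binding subunits Rfx5, Rfxap and Rfxank differed by -0.07, 0.03 and 0.04. Ifng, the interferon that induces Ciita, was at 0 in all 5 retinas. Creb1, which binds the X2 element, was chosen after its values were seen. It was at 121, 136 and 136 CPM in the DMSO retinas and 235 and 148 CPM in the Sorbinil retinas. The difference of Creb1 was 0.55 (SE 0.21, unadjusted p 0.0428, edgeR's quasi-likelihood test).

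All 17 genes of endosomal processing were tested, with a median difference of -0.09. The most abundant were Cst3, a cathepsin inhibitor, at 621 and 664 CPM, Ctsb at 580 and 524 CPM and Ctsd at 480 and 429 CPM in the DMSO and Sorbinil groups. None of the 3 passed the threshold. Ctss and Ctsh, cathepsins named after their values were seen, differed by -0.75 and -0.59 (unadjusted p 0.0609 and 0.0483, edgeR's quasi-likelihood test), with Ctss at 38.2, 43.7 and 26.0 CPM in the DMSO retinas and 15.6 and 27.2 CPM in the Sorbinil retinas. The Sorbinil retina 3 lay within the DMSO range of Ctss. Ctsh was at 24, 21.7 and 20.6 CPM in the DMSO retinas and 11.1 and 18.2 CPM in the Sorbinil retinas. Of the 17 genes, 3 had both Sorbinil retinas below every DMSO retina, Ctsd, Ctsh and Rab7, beside 10.5% of all genes tested.

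Costimulatory and checkpoint ligands, the second signal that a T cell reads beside the class II peptide, were tested in 5 of 10 cases, all 5 with negative differences and a median of -0.33. Cd83 was at 4.32 and 3.39 CPM, Cd274 at 3.16 and 2.97 and Tnfsf9 at 1.87 and 1.61 CPM in the DMSO and Sorbinil groups. Most of this came from the Sorbinil retina 1, where Icosl, chosen after its values were seen, was at 0.457 CPM against 1.54, 1.48 and 1.19 in the DMSO retinas and 1.08 in the Sorbinil retina 3. The other genes of the class II region, H2-DMb2, H2-Ea and H2-Eb2, had 2 to 5 counts in all per retina and were not tested.

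**Figure D5:**
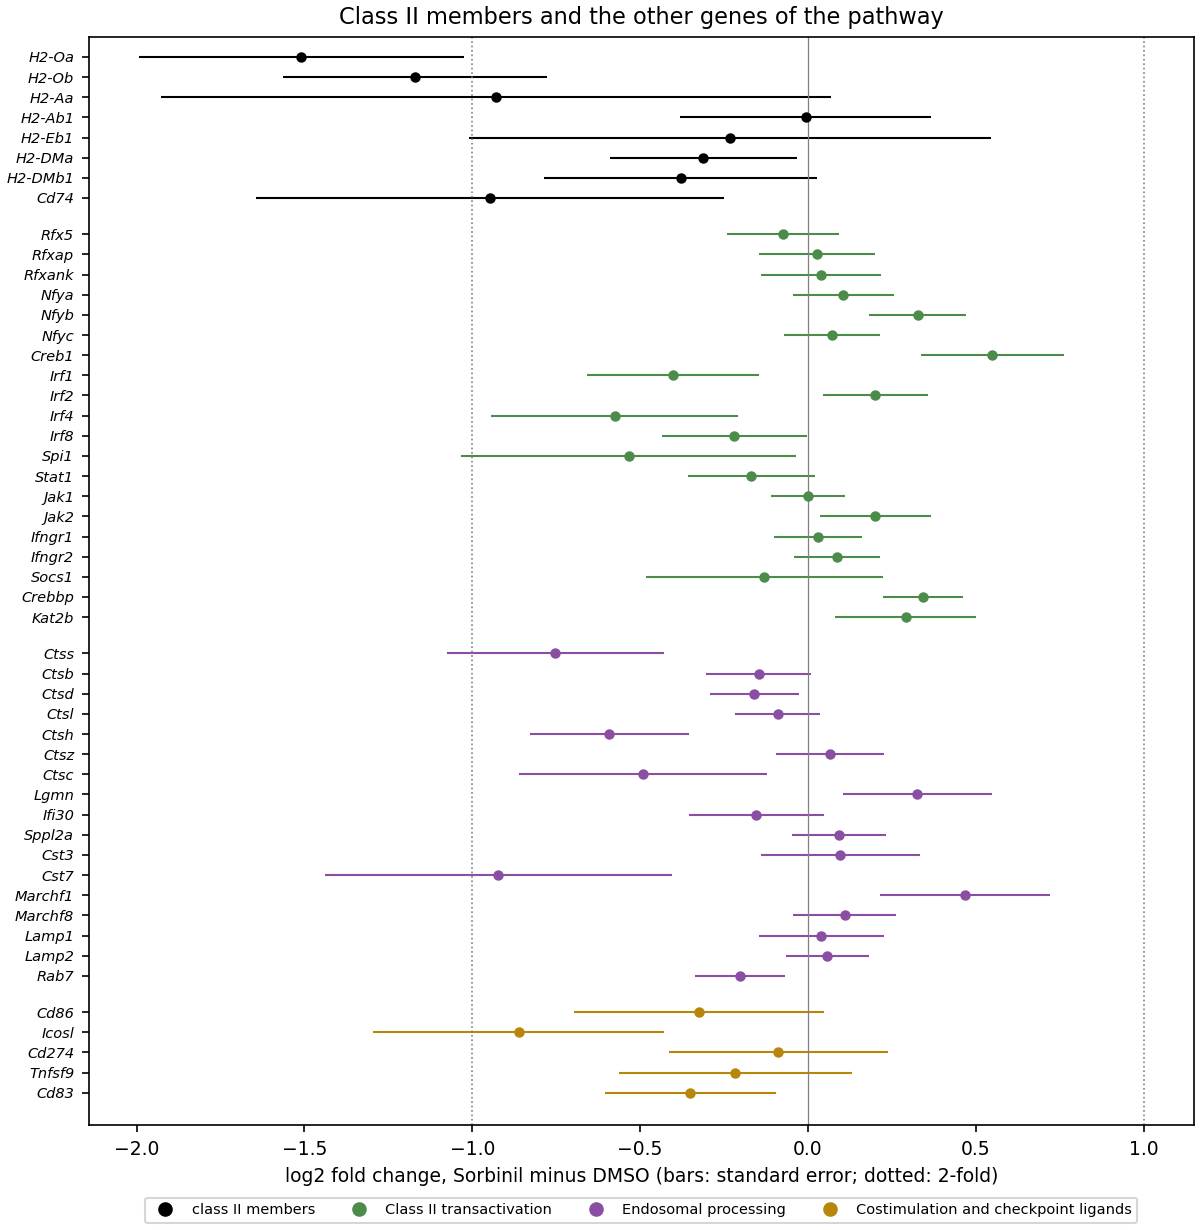
Log2 difference between Sorbinil and DMSO with its standard error for the 8 members and 42 pathway genes tested, with dotted lines at a 2-fold change. H2-Oa and H2-Ob lie beyond the 2-fold line, and the pathway genes lie between the lines.

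The genes whose values across the 5 retinas lay nearest to those of each class were listed by the root mean square difference of centred log2 CPM. For the classical genes these were Sst, Tifab, Crh, Ifi204 and Cd38, at 0.235 to 0.264, among 13413 genes with a mean of at least 50 counts. For the H2-O pair they were Hrct1, Cd14, Ip6k3, Psmb10 and Pyroxd2, at 0.0964 to 0.177, among 14881 genes with a mean of at least 10 counts. Cd14, a coreceptor for bacterial lipopolysaccharide, was at 1.55, 1.6 and 1.49 CPM with DMSO and 0.647 and 0.899 CPM with Sorbinil. Psmb10, a subunit of the immunoproteasome, was at 9.12, 9.46 and 7.61 CPM against 4.49 and 4.89 CPM. Like the H2-O pair, both had the Sorbinil retinas below every DMSO retina, which their choice by likeness fixes. Ifi204, an interferon-inducible gene near the classical profile, was at 0.889, 1.86 and 0.594 CPM against 0.552 and 0.958 CPM, highest in the DMSO retina 2, as H2-Aa and H2-Eb1 were. With 5 points such a ranking is a description of these retinas.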

How the data were processed

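Total RNA from whole retinas was sequenced as reverse stranded libraries (per the labels). The authors used CLC Genomics Workbench to trim reads and align them to GRCm39, and the deposited values are raw read counts per gene. How reads were assigned by strand is not given in the sources used here. The study counts the retinas of each group as separate mice (3 DMSO, 2 Sorbinil), with 1 Sorbinil replicate left out by the authors. Counts were filtered with edgeR 4.0.16 (filterByExpr, minimum count 10) and scaled by the trimmed mean of M values. They were fitted by edgeR's quasi-likelihood test in R 4.3.3 over 14992 genes. Alternatives used other edgeR settings and DESeq2 1.42.0. Log2 CPM used a prior count of 2. Each SE of a fitted difference is its absolute log2 value divided by the square root of the test's F statistic. It is rough for differences near 0. A call was an unadjusted p of at most 0.1 with at least a 2-fold change, as in the study. The method was tested on simulated data. The members and gene lists were chosen with earlier results of these data known. Every member was named, with the called genes of each list and, for the pathway lists, up to 3 of highest mean CPM. Further genes were named for their role, for a count at or near 0 or after their values were seen. The marker genes named are therefore not always the most abundant of their list. Promoters came from RefSeq and positions from GENCODE vM39. All pairs of retinas differed beyond counting noise (lowest chi-square over its degrees of freedom, 25.5).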

Additional observations from a re-analysis of the deposited data

Results flagged for a closer look

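The retinas numbered 1 and 2 carried Y-linked counts and those numbered 3 did not, and for 3 genes and 1 mean the Sorbinil retina lay below every DMSO retina of its own set where Y-linked counts were present and above where they were not. Values are mean log2 CPM differences of Sorbinil minus DMSO. Cd74 differed by -1.92 where Y-linked counts were present (2 DMSO, 1 Sorbinil retina) and by 0.78 where they were not (1 and 1). H2-Aa differed by -1.79 and 1.75, and H2-Ab1 by -0.54 and 0.75. The mean of H2-Aa, H2-Ab1 and H2-Eb1 differed by -0.88 and 1.20. H2-Eb1 also changed sign, at -0.31 and 1.11, but its Sorbinil retina 1 lay between the DMSO retinas of its set. H2-Oa differed by -1.37 and -1.03, and H2-Ob by -1.02 and -1.03, in the same direction in both sets. These differences were not tested, and sex, replicate number and retina cannot be told apart with 1 Sorbinil retina in each set.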

How the results depend on the processing

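The H2-O contrast stayed negative under all 12 alternatives, from -1.58 to -0.50. The alternative at -0.64 put microglial markers in place of the classical genes, which is a different contrast. H2-Oa and H2-Ob were chosen for being lower with Sorbinil. That choice favours a negative sign, so nothing is read from the sign. Scaling by library size alone can hardly move a difference taken within a retina. The replicate block gave the same -1.58 as leaving out the DMSO retina 2. The members called stayed at 2 under most settings. They were 0 with at least 10 counts in every retina, where neither H2-O gene was tested, 0 with an adjusted p of at most 0.1 and 0 with the replicate block, where H2-Oa and H2-Ob still differed by -1.60 and -1.18, and 2 to 3 when each retina was left out, Cd74 being added without the DMSO retina 3 or the Sorbinil retina 3. The members' median was -0.35 with that filter, -0.24 with the replicate block and between -0.94 and -0.24 with a retina left out. Genes called over the whole table (257 as reported) were 408 with no filter, 148 with at least 10 counts in every retina, 168 at p of at most 0.05, 0 with adjusted p, and 164 to 2903 with a retina left out. Genes called lower (203) were 119, 129 and 0 under the last 3 and 129 to 2656 with a retina left out; the largest values came without the Sorbinil retina 3. Pathway genes called were 1 with no filter and 0 to 3 with a retina left out. The replicate numbers are shared by only 2 pairs and no source ties a number to a shared litter or day, so they were not taken as pairs. The deviations of the pairs correlated at -0.243 and -0.125, but with 2 Sorbinil retinas the deviations of one mirror the other, so these values carry little. Under it 203 genes were called and the H2-O difference was -1.58. Without a Sorbinil retina the lone one was assumed to vary like the DMSO ones. With a term for the Y-linked counts, added after seeing the data, 307 genes were called, 2 members among them. Members with under 10 counts per retina have wide counting intervals.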
